A study of Mus musculus with 27 samples.

Results

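Transcript levels in kidney and testis were compared on 6 of the 27 arrays of a mouse tissue survey. The 3 kidney arrays and the 3 testis arrays were chosen by the tissue and title that the labels give each sample, not by any measured value. All 6 held total RNA from male mice of the inbred strain C57BL/6, wild-type and 6 to 8 weeks old. The remaining 21 arrays, 3 from each of 7 tissues (bone marrow, brain, liver, lung, lymph node, spleen and thymus), were used for the error estimate and as a scale for the levels. The Affymetrix array was made for glycogenes, whose products synthesise, bear, recognise or break down sugar chains, and carries chemokine, cytokine and growth factor genes beside them. It gave values for 573 mouse genes. Values in the text are deposited intensities in the order replicate 1, 2 and 3, differences are kidney minus testis on the log2 scale with the SE from limma, and p-values are limma's, adjusted by the Benjamini-Hochberg method over all 573 genes. A gene is called higher in a tissue at an adjusted p under 0.05 with a log2 difference of at least 1. Whether the arrays of one tissue hold RNA of different animals is not in the labels. The p-values therefore cover the spread among arrays alone, which may be technical.

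Kidney and testis both depend on sugar metabolism, in different ways. The proximal tubule of the kidney takes up filtered proteins and degrades them in lysosomes, where exoglycosidases remove sugars from glycoproteins and glycolipids one after another, and it conjugates small molecules with glucuronic acid for excretion. Kidney also holds dense capillary beds around the tubules and in the glomeruli. In the testis, germ cells develop between Sertoli cells, which supply them with metabolites, and the maturing sperm carries a glycan coat and a characteristic sulfated galactolipid, seminolipid.

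The labels could be checked against tissue markers only in part. None of 17 listed markers of kidney epithelium and none of 8 Leydig cell markers is among the genes measured. Of 23 germ cell markers only Kit, the stem cell factor receptor, was measured, at 246, 247 and 218 in kidney and 220, 249 and 353 in testis (-0.18 ± 0.13, adjusted p = 0.309). Of 14 Sertoli cell markers, 4 were measured and none was called. Amh, anti-Müllerian hormone, differed by 0.24 ± 0.10 (adjusted p = 0.054), Kitl, the ligand of Kit, by 0.14 ± 0.16, Dhh, desert hedgehog, by -0.10 ± 0.10 and Gdnf, the glial cell line-derived neurotrophic factor, by -0.19 ± 0.13. On this array, therefore, no defining marker separated testis from kidney, and the identity of the samples rests on their labels.

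Arrays of the same tissue resembled each other more than arrays of the other tissue. Across genes, which are not independent replicates, r was 0.972 to 0.981 within kidney, 0.934 to 0.962 within testis and 0.624 to 0.702 between them. Testis replicate 1 stood apart in its control probe sets. The ratio of the 5′ to the 3′ probe set of Actb, a usual measure of RNA integrity, was 0.268 there, against 0.773 and 0.738 in testis replicates 2 and 3, 0.792, 0.552 and 0.736 in kidney and at least 0.594 in the remaining 21 arrays. The same ratio for Gapdh was 0.242, 0.596 and 0.476 in testis and 0.855, 0.821 and 0.903 in kidney. In the 21 other arrays it ran from 0.521 to 0.871, so for Gapdh testis replicate 3 also lay below them all. In testis replicate 1, 5 genes lay over 2-fold away from both other testis arrays, a count that ranged from 0 to 9 in the 21 other arrays. Of those 5, Clec4a2, Hk1, Phactr1 and St6galnac2 are among the genes called below. Human probe sets on the same arrays, a rough measure of non-specific signal, had a median of 212 and a 95th percentile of 590 over the 6 arrays, and the mouse genes a median of 291. A level near or under that range may be mostly non-specific signal, and where either tissue is that low a fold compares signals rather than transcripts. The human probe set median was itself higher in the testis arrays, at 230, 220 and 216, than in the kidney arrays, at 207, 204 and 200.

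**Figure D1:**
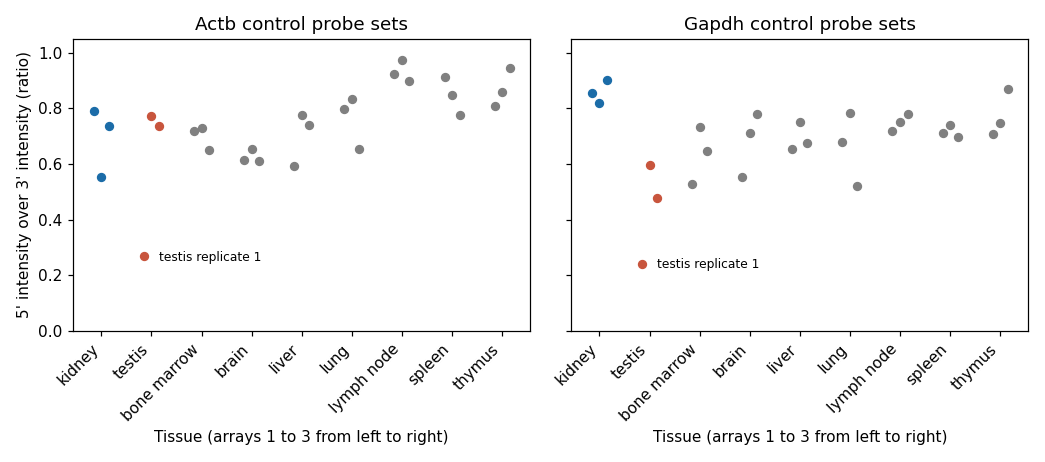
Ratio of the 5′ to the 3′ probe set of Actb and Gapdh in each of the 27 arrays by tissue; every point is 1 array. Testis replicate 1 has the lowest ratio for both control genes, 0.268 and 0.242.

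Of 573 genes, 87 (15.2%) were called different. Kidney was higher in 70 of them (12.2% of all genes) and testis in 17 (2.97%), while the median difference over all genes was 0.005. The 3 kidney arrays all lay above the 3 testis arrays in 163 genes (28.4%) and all below them in 130 (22.7%), so that most genes with separated arrays were not called. All 70 genes called higher in kidney had arrays that did not overlap, as had 16 of the 17 called higher in testis, with Hk1 as the exception. The median size of the called differences was 1.63 in the kidney direction and 1.87 in the testis direction. Without testis replicate 1 the counts were 71 and 18, with 68 and 17 genes shared. In bulk tissue, fewer cells of a type and less RNA per cell cannot be told apart in any of these differences.

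The 7 other tissues show which side of a called difference stood apart. Among the 70 genes higher in kidney, kidney had the highest mean of all 9 tissues in 25, and testis the lowest in 34. Among the 17 genes higher in testis, testis had the highest mean of all 9 tissues in 13, and in 11 its 3 arrays lay above the 21 arrays of the 7 other tissues. Over all 573 genes, kidney had the highest mean in 61 and testis in 86, and testis the lowest in 78.

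**Figure D2:**
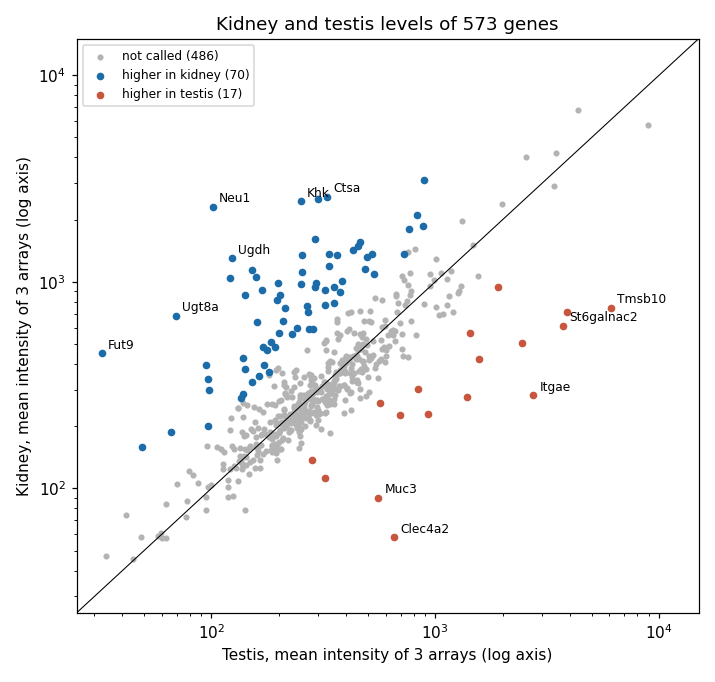
Mean intensity of 3 arrays in testis (horizontal) and kidney (vertical) for 573 genes, both on log axes; every point is 1 gene and the line marks equal levels, with the 70 genes called higher in kidney, the 17 called higher in testis and the others in different colours. Neu1 lies farthest on the kidney side, and Clec4a2 and Itgae on the testis side.

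The largest difference in the comparison was in Neu1, the lysosomal sialidase that removes terminal sialic acid. Its intensities were 2606, 2278 and 2031 in kidney and 101, 98.8 and 105 in testis. Kidney was 22.6-fold higher (4.50 ± 0.15, adjusted p = 6.48e-17). All kidney arrays lay above, and all testis arrays below, each of the 21 other arrays, whose tissue means ran from 252 in lung to 406 in lymph node. The testis level was under the median of the human probe sets.

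Neu1 works in a lysosomal complex with cathepsin A, encoded by Ctsa, which stabilises it, and with the beta-galactosidase encoded by Glb1, which removes the galactose exposed once sialic acid is gone. Both partners were higher in kidney as well. Ctsa read 2835, 2538 and 2367 in kidney and 262, 359 and 365 in testis, a 7.92-fold difference (2.99 ± 0.16, adjusted p = 2.99e-13). For Ctsa, testis was the tissue that stood apart, since its arrays lay below all 21 others, while the kidney mean was within the range of the other tissue means, 1138 in brain to 3210 in lymph node. Glb1 read 1261, 1490 and 1344 against 299, 291 and 415, or 4.12-fold higher in kidney (2.04 ± 0.15, adjusted p = 6.59e-11). For Glb1, kidney stood apart, as the highest mean among the 7 other tissues was 655 in lymph node.

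Among 23 measured genes of lysosomal glycan degradation, 10 were called higher in kidney (all genes: 12.2%) and 1 higher in testis (all genes: 2.97%). The list median was 0.38. Beside the 3 above, the largest was Galns, which removes sulfate from keratan and chondroitin sulfate, at 1026, 891 and 1026 against 240, 259 and 254 (3.90-fold, 1.96 ± 0.12). The 6 others, named after their values were seen, were the mannosidase genes Man2b1 (1.92) and Manba (1.76), Aga, which splits the link between N-glycan and asparagine (1.52), the beta-glucuronidase Gusb (1.47), the hyaluronidase Hyal2 (1.06) and Gm2a, the ganglioside activator protein (1.01). Of these 6, testis had the lowest mean of the 9 tissues for Man2b1, Manba, Gusb and Hyal2. Kidney had the highest mean for Manba and Aga alone. Gm2a lies at the threshold, with testis values of 402, 740 and 1024. Without testis replicate 1 its difference was 0.63 (adjusted p = 0.0691), which left 9 called. Its call was also lost without kidney replicate 2 (0.86), with an offset of 16 (0.99) and with array weights (0.97), and that of Hyal2 without kidney replicate 2 (0.99). Lamp2, a glycoprotein of the lysosomal membrane that is not in the list, followed the same direction at 3150, 2264 and 2103 against 404, 200 and 294 (8.58-fold, 3.10 ± 0.25, adjusted p = 3.43e-10).

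The direction was not shared by the whole list. Arsa, the sulfatase that removes sulfate from sulfatide and seminolipid, was the 1 member called higher in testis. It read 559, 603 and 528 in kidney and 903, 1801 and 1580 in testis (-1.28 ± 0.15, adjusted p = 1.09e-07, 2.44-fold), and the other 7 tissue means ran from 542 to 768, so that testis stood above the rest. The remaining 12 members were not called. They ran from 0.65 for Gaa, the lysosomal alpha-glucosidase, to -0.73 for Hexa, the alpha subunit of beta-hexosaminidase, with 0.11 for Galc, which degrades galactosylceramide.

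The sequence upstream of the transcription start is shown for the complex members Neu1, Ctsa and Glb1, which were all higher in kidney, and for Arsa, which was higher in testis. Each is the 250 bases before the start from RefSeq (GRCm38.p6), read 5′ to 3′ in the direction of transcription. Capitals mark CACGTG, the palindromic E-box core that is part of the element bound by the lysosomal regulator TFEB, and TGACG, the short core of the cAMP response element, which reads CGTCA on the other strand. Neu1 lies at chr17:34931003-34931252 on the plus strand, Ctsa (the second of 2 starts in the table) at chr2:164833523-164833772 on the plus strand, Glb1 at chr9:114400828-114401077 on the plus strand and Arsa at chr15:89477425-89477674 on the minus strand.
Neu1: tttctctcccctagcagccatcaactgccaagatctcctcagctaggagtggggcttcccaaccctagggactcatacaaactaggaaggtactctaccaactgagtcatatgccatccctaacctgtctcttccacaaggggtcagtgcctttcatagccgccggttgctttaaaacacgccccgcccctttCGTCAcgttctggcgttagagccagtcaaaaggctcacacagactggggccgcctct
Ctsa: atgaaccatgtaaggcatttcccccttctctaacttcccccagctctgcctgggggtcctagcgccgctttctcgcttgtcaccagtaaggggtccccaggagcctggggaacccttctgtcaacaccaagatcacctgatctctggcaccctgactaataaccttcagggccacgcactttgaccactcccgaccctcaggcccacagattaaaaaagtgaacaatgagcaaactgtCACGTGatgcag
Glb1: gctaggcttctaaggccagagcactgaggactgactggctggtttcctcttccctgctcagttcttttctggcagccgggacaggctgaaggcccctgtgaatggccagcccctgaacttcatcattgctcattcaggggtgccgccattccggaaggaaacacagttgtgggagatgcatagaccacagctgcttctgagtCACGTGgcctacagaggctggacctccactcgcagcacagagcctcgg
Arsa: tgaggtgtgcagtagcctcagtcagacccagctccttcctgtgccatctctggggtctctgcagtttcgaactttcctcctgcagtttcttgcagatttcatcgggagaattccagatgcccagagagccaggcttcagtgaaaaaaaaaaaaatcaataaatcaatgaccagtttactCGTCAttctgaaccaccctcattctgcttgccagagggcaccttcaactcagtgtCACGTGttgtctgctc
The E-box core begins 12 bases before the start in Ctsa, 48 in Glb1 and 16 in Arsa. The letters CACGTG are not in the Neu1 window, where the short core TGACG begins, as CGTCA, 57 bases before the start. TGACG also begins, as CGTCA, 71 bases before the start of Arsa. The first of the Ctsa starts holds neither. Searched on both strands, the E-box core was in 6.02% of 32851 RefSeq mouse promoters of this length, in 38 of the 444 array genes that matched the table (8.56%) and in 7 of the 21 matched lysosomal genes. It was in 2 of the 8 matched lysosomal genes called higher in kidney, so that the motif was not limited to those that differed in this direction. TGACG was in 17.8% of all promoters. A gene counts once if any of its starts holds the letters. Matches are descriptions of letters, and no factor binding was measured.

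Other short motifs were searched in the same way. TGACG was in 13 of the 56 matched genes called higher in kidney and 5 of the 14 called higher in testis, against 89 of the 444 matched array genes (20.0%). Its full palindrome TGACGTCA was in 1 and 0, against 4 of 444 (0.901%), and GTTGCC, part of the site of RFX factors, in 10 and 1, against 53 of 444 (11.9%). GTTAAT, part of the site of the kidney and liver factor HNF1, was in 5 and 0, against 16 of 444 (3.60%), and CAAAGTCCA, a form of the HNF4 site, in 0 and 0, against 3 of 444 (0.676%). Over all promoters of the table, counted singly, the shares of these 4 were 1.55%, 10.4%, 6.43% and 0.384%.

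Genes that make the activated sugars and sulfate used by transferases split between the tissues. Of 31 measured genes of nucleotide sugar synthesis and transport, 8 were called higher in kidney and 3 higher in testis. The shares of all genes were 12.2% and 2.97%, and the list median was 0.26. On the kidney side the largest was Ugdh, which oxidises UDP-glucose to UDP-glucuronic acid, the donor for both glucuronidation and glycosaminoglycan chains. Ugdh read 1395, 1413 and 1100 in kidney and 108, 136 and 126 in testis, 10.6-fold apart (3.40 ± 0.20, adjusted p = 9.74e-13), and its second probe set differed by 3.00. Testis was again at the bottom of the range, since the lowest of the 7 other tissue means was 456, in brain.

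Enzymes on either side of Ugdh in this route were measured too. Ugp2, which makes UDP-glucose and is named after its values were seen, differed by 1.36 ± 0.18. Among 3 measured UDP-glucuronosyltransferases, which transfer glucuronic acid to drugs and hormones, 2 were called higher in kidney, against 12.2% of all genes. Ugt2b5 read 803, 912 and 866 against 154, 129 and 142 (6.07-fold, 2.60 ± 0.38, adjusted p = 3.17e-06), and Ugt1a6a read 3961, 2685 and 2658 against 850, 824 and 989 (3.44-fold, 1.78 ± 0.24). Neither peaked in kidney: the liver means were 8716 and 5567. Ugt2a1, an olfactory member, differed by 0.01.

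Both PAPS synthases, which make the universal sulfate donor, were higher in kidney. Papss1 read 1122, 1270 and 971 against 211, 259 and 290 (4.43-fold, 2.15 ± 0.13), and Papss2 read 1047, 881 and 522 against 210, 197 and 183 (3.99-fold, adjusted p = 7.56e-09). The kidney values of Papss2 spread widely, and the lowest of them was still above every testis array. The other called members on the kidney side were named after their values were seen: Renbp, an N-acetylglucosamine epimerase also known as the renin-binding protein (1.72), Galt of galactose metabolism (1.63), Uap1, which makes UDP-N-acetylglucosamine (1.25), and Slc35a1, the transporter of CMP-sialic acid into the Golgi (1.18). Khk, which phosphorylates fructose and is outside the list, read 2656, 2393 and 2303 against 235, 258 and 262 (9.74-fold, 3.28 ± 0.17, adjusted p = 2.43e-13), while its liver mean was 2694.

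The 3 members higher in testis act early in these routes, on glucose or fructose 6-phosphate. Gfpt1, the rate-limiting enzyme of the hexosamine pathway, read 245, 208 and 238 in kidney and 668, 947 and 1157 in testis (-1.97 ± 0.14, adjusted p = 4.39e-11, 3.92-fold), and none of the 7 other tissue means exceeded 282. Mpi, which interconverts fructose 6-phosphate and mannose 6-phosphate, read 464, 437 and 376 against 1377, 1345 and 1989 (-1.87 ± 0.13, 3.64-fold), with the other tissue means between 272 and 470, and under quantile normalization its fold was 5.62. For Gfpt1 and Mpi, then, testis was the tissue apart from all others. Gfpt2, the second enzyme of the Gfpt1 step, was not called (-0.36).

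The third, the hexokinase gene Hk1, rests on unlike testis arrays. It read 816, 666 and 667 in kidney and 494, 7940 and 3201 in testis, so that replicate 1 lay below the kidney arrays and replicate 2 far above them. The fitted difference was -1.70 ± 0.50 (adjusted p = 0.00844), and a second probe set differed by -1.26. Without testis replicate 2 the difference was -0.82 (adjusted p = 0.11), without testis replicate 1 it was -2.82 (adjusted p = 2.55e-10), and in a fit to the 6 arrays alone the adjusted p was 0.167.

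**Figure D3:**
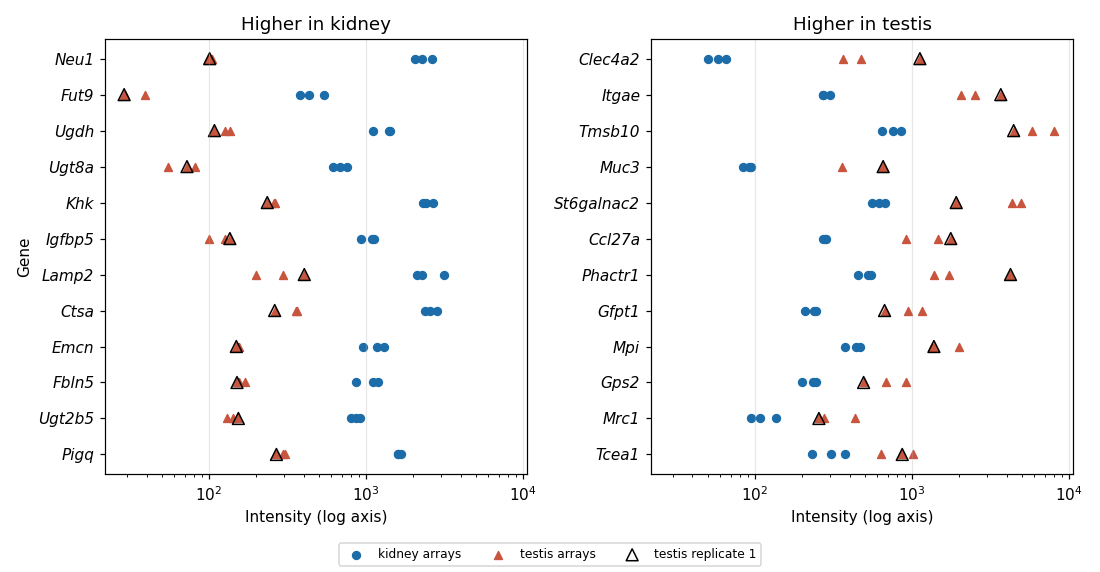
Intensity on a log axis in each kidney array (circles) and testis array (triangles) for the 12 genes with the largest called differences in each direction whose arrays do not overlap; testis replicate 1 is outlined in black. For Clec4a2, Itgae and Phactr1 it is the highest of the 3 testis arrays, and for St6galnac2 and Gfpt1 the lowest.

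Of 11 fucosyltransferases, which cap sugar chains, 1 was called, higher in kidney, against 12.2% of all genes. This was Fut9, the enzyme that builds the Lewis x epitope. It read 539, 432 and 381 in kidney and 28.8, 29.2 and 38.9 in testis (14-fold, 3.80 ± 0.26, adjusted p = 1.82e-11). With a floor of 64 in place of 16 the fold was 6.97, since the testis values lie under that floor. The brain mean, 148, was the highest of the 7 other tissues, so that kidney stood above every other tissue. The list median was -0.16, and the next members were Fut11 (0.53) and Sec1 (-0.75), neither called.

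Of 18 sialyltransferases 1 was called, higher in testis, as were 2.97% of all genes, and the list median was -0.14. St6galnac2, which adds sialic acid to the first sugar of O-glycans, read 616, 673 and 555 in kidney and 1910, 4352 and 4905 in testis (-2.49 ± 0.21, adjusted p = 4.58e-10, 5.62-fold). Testis replicate 1 was the lowest of the testis arrays, and without it the difference was -2.92. Kidney and testis were the 2 tissues with the highest levels, as the other 7 means ran from 77.6 to 278 and the kidney arrays also lay above all 21 others. The other members ran from 0.69 for St3gal6 to -0.62 for St6galnac5.

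Among 15 genes of glycosphingolipid synthesis, Ugt8a alone was called, higher in kidney, against 12.2% of all genes. It encodes the galactosyltransferase that makes galactosylceramide and the galactolipid precursor of seminolipid. Ugt8a read 758, 686 and 614 in kidney and 72.4, 54.8 and 81.5 in testis (9.96-fold, 3.32 ± 0.25, adjusted p = 6.78e-11), and a second probe set differed by 3.85. The highest of the other tissue means was 511, in brain. Ugcg, which makes glucosylceramide at the parallel first step, differed by 0.05. St3gal5, which starts the gangliosides, differed by -0.41, and the list median was -0.06.

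Of 13 measured N-glycan genes, 4 were called higher in kidney, against 12.2% of all genes, and none higher in testis. The list median was 0.36, and 0.19 with 3 called without testis replicate 1. Mgat1, which opens the way to complex N-glycans, read 1033, 1027 and 901 against 258, 319 and 302 (3.38-fold, 1.76 ± 0.12, adjusted p = 1.86e-11), and Mgat2, which acts on a later branch, read 1127, 986 and 899 against 270, 412 and 465 (1.42 ± 0.21). Ganab, the catalytic subunit of the glucosidase that trims new N-glycans, differed by 1.30 ± 0.17. Canx, the chaperone calnexin, differed by 1.12 ± 0.18 on testis values of 598, 1027 and 1012, and by 0.87 without testis replicate 1, under the threshold on size. The testis mean was the lowest of the 9 tissues for Mgat1, Ganab and Canx. The kidney mean was the highest for Mgat2 and Canx, but not for Mgat1 or Ganab. The branching gene Mgat4a (-0.38) and the oligosaccharyltransferase subunits Rpn1 (0.04) and Rpn2 (-0.47) were not called.

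O-glycan initiation was split among isoenzymes. Of 11 measured genes of mucin-type O-glycan initiation and cores, 3 were called higher in kidney and 1 higher in testis. The median was -0.07, and 12.2% and 2.97% of all genes were called in these directions. Galnt1 and Galnt2, which attach the first N-acetylgalactosamine to many proteins, read 728, 616 and 563 against 107, 188 and 187 (4.07-fold, 2.02 ± 0.19), and 429, 599 and 374 against 173, 178 and 179 (2.59-fold, 1.38 ± 0.15). Galnt3, an isoenzyme of the same reaction, went the other way at 913, 1018 and 899 in kidney and 1825, 2025 and 1894 in testis (-1.02 ± 0.17, adjusted p = 2.06e-05). Its size lies at the threshold, and the call was lost under median centring (-0.98) and without kidney replicate 1, kidney replicate 3 or testis replicate 2. As with St6galnac2, both tissues lay above the other 7, whose Galnt3 means ran from 163 to 420. Gcnt1, which makes core 2 branches, was higher in kidney (1.42 ± 0.13), while Gcnt3 (-0.79) was not called. Of 20 lactosamine chain genes only B3gnt2, a poly-lactosamine extender, was called (1.16 ± 0.12, higher in kidney). Its second probe set differed by 0.47, and the call was lost on the mean of both (0.81).

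Glycosaminoglycan genes were called about as often as all genes (15.2%), with 2 of 27 higher in kidney, 1 higher in testis and a median of -0.13. Hs6st1, which sulfates heparan sulfate at the 6 position, read 1116, 1007 and 846 against 184, 197 and 212 (4.98-fold, 2.32 ± 0.14, adjusted p = 2.47e-12). Ext1, a subunit of the heparan sulfate polymerase, read 188, 190 and 188 against 53.8, 59 and 85 (2.92-fold, 1.55 ± 0.15), all under the median of the human probe sets. Ndst3, an N-deacetylase and N-sulfotransferase of the same chain, read 136, 124 and 152 in kidney and 262, 287 and 299 in testis (-1.05 ± 0.12, adjusted p = 5.57e-08). The Ndst3 call was lost with an offset of 16 (-0.97) and without kidney replicate 2 (-0.98). Hs6st2 (0.43) and Ext2 (0.52) were not called. Of 23 proteoglycan core proteins, Bgn, the matrix proteoglycan biglycan (1.39 ± 0.20), and Gpc4, a glypican (1.11 ± 0.17), were higher in kidney and none was higher in testis, with a median of 0.13.

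Pigq, a subunit of the enzyme that starts the glycosylphosphatidylinositol anchor, belongs to none of these lists. It read 1604, 1669 and 1587 in kidney and 268, 306 and 298 in testis (5.58-fold, 2.48 ± 0.12, adjusted p = 8.94e-14). As for Neu1, kidney lay above and testis below all 21 other arrays, whose tissue means ran from 562 to 1384.

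**Figure D4:**
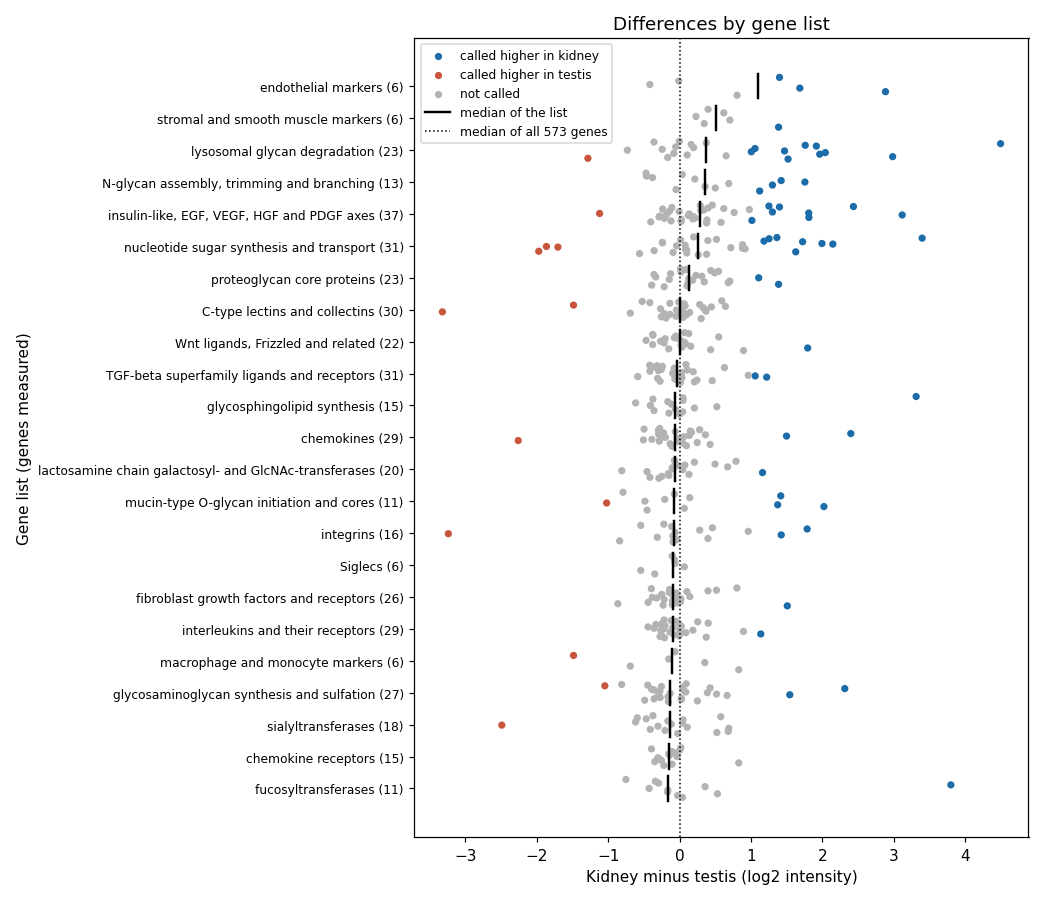
Kidney minus testis log2 difference of each measured gene in the larger gene lists; every point is 1 gene, with called genes in colour and the list median as a bar. The list medians run from 1.10 for endothelial markers to -0.16 for fucosyltransferases, and single members such as Itgae, Clec4a2, St6galnac2 and Fut9 lie far from their list's median.

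Some endothelial markers were higher in kidney. Of 9 listed endothelial markers, 6 were measured and 3 called, all higher in kidney, against 12.2% of all genes. The median of the 6 was 1.10. Emcn, the endothelial sialomucin endomucin, read 1168, 1290 and 950 in kidney and 149, 155 and 153 in testis (7.39-fold, 2.89 ± 0.17, adjusted p = 1.97e-12). Pecam1, the junctional adhesion molecule CD31, differed by 1.69 ± 0.16 on a kidney mean of 158 and testis values of 46 to 54.5. For Pecam1 both were under the median of the human probe sets. Tek, the angiopoietin receptor, differed by 1.40 ± 0.13. Cd34 (0.81), Selp (-0.01) and Sele (-0.42) were not called. The summed level of the 6 was 2263 to 2761 in the kidney arrays and 1239 to 1252 in the testis arrays. Stromal and smooth muscle markers had a median of 0.51 over 6 genes with only Bgn called, and summed to 2710 to 4034 in kidney and 1854 to 2590 in testis. Their part in the differences that follow was not tested.

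The next 4 genes, which have a vascular or stromal role and were called higher in kidney, were grouped after their values were seen. Vegfa, the endothelial growth factor, read 1128, 757 and 850 in kidney and 157, 202 and 145 in testis (5.42-fold, 2.44 ± 0.21), and Cxcl12, a stromal chemokine, read 1351, 1574 and 1111 against 273, 246 and 240 (5.28-fold, 2.40 ± 0.20). Igfbp5, a binding protein of insulin-like growth factors, read 1123, 1086 and 930 against 136, 127 and 100 (8.69-fold, 3.12 ± 0.19), and Fbln5, an elastic fibre protein, read 1197, 1110 and 860 against 151, 169 and 155 (6.62-fold, 2.73 ± 0.19). For Igfbp5 and Fbln5 the lung means, 1043 and 1029, lay within the range of the kidney arrays. The highest tissue mean was in lung for Vegfa (2102) and in spleen for Cxcl12 (5129).

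Of 37 measured genes of the insulin-like, EGF, VEGF, HGF and PDGF axes, 8 were called higher in kidney and 1 higher in testis. The shares of all genes were 12.2% and 2.97%, and the list median was 0.29. Receptors in this group included Igf1r, the receptor of insulin-like growth factors (3.51-fold, 1.81 ± 0.23), whose second probe set differed by 0.57 and which was 2.28-fold higher on the mean of its probe sets, and Lifr, the receptor of leukaemia inhibitory factor (1.81 ± 0.19). Lifr has a second probe set that differed by -0.14, and its call was lost on the mean of both (0.84). Lif itself, the ligand, was the member higher in testis, at 272, 264 and 240 against 506, 521 and 672 (-1.12, 2.17-fold). Without testis replicate 3, Lif differed by -0.99, under the threshold on size.

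The other signalling families held 1 or 2 called genes each, while 15.2% of all genes were called in either direction. Of 26 fibroblast growth factors and receptors only Fgf1 was called, at 946, 931 and 878 against 291, 358 and 321 (2.85-fold, 1.51 ± 0.12). Among 31 genes of the TGF-beta superfamily, Bmp4 (1.22 ± 0.16) and Bmp6 (1.06 ± 0.14), both bone morphogenetic proteins, were higher in kidney. The call of Bmp4 was lost without kidney replicate 1 (0.94), and that of Bmp6 without testis replicate 2 (0.95) and with an offset of 16 (0.95). The kidney morphogen Bmp7 fell short of the size threshold (0.96 ± 0.13, adjusted p = 8.96e-07). Fzd4, a Wnt and norrin receptor, was the 1 called of 22 Wnt and Frizzled genes (3.47-fold, 1.80 ± 0.21), and on the mean of its probe sets it was 6.09-fold higher in kidney. Il15, a cytokine for T and natural killer cells, was the 1 called of 29 interleukin genes (1.14 ± 0.19), and without testis replicate 3 it was not (0.91). None of 15 listed chemokine receptors was called (median -0.14). Ccr1l1, a chemokine receptor-like gene outside that list, was called higher in kidney and is named after its values were seen. It read 307, 299 and 296 in kidney and 103, 84.9 and 105 in testis (1.63 ± 0.20, adjusted p = 2.37e-07).

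Of 16 integrins, 2 were called higher in kidney and 1 higher in testis, against 12.2% and 2.97% of all genes. On the kidney side the list was thus near the share of all genes. Itgb1, the common beta 1 chain, read 1634, 1715 and 1315 in kidney and 324, 460 and 600 in testis (3.45-fold, 1.79 ± 0.19), and Itga6, a laminin-binding partner of it, differed by 1.43 ± 0.16. Itgae, the alpha E chain that binds E-cadherin and is known from intraepithelial lymphocytes, read 273, 272 and 302 in kidney and 3669, 2050 and 2513 in testis (-3.24 ± 0.16, adjusted p = 8.94e-14, 9.45-fold). The highest of the 7 other tissue means for Itgae was 735, in lymph node, so that testis stood above the lymphoid tissues. Itgb7, its partner chain, differed by -0.22 and was not called. Of 4 measured T cell markers none was called, and their median was -0.21. The median over the integrins was -0.08.

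Of 30 C-type lectins and collectins, 2 were called, both higher in testis, against 2.97% of all genes. The median was 0.01. Clec4a2, an inhibitory receptor of myeloid cells, read 58.5, 65.8 and 50.2 in kidney and 1121, 365 and 473 in testis (-3.32 ± 0.42, adjusted p = 3.86e-07, 10-fold). Testis replicate 1 was the highest, and without it the difference was -2.85. Its second probe set differed by -0.37, and on the mean of the probe sets the testis excess was 3.59-fold. Mrc1, the macrophage mannose receptor, read 108, 136 and 94.6 against 255, 277 and 433 (-1.49 ± 0.29, adjusted p = 0.000153, 2.80-fold). Testis was not the highest tissue for either gene. The bone marrow mean of Clec4a2 was 2612 against 653 in testis, and the spleen mean of Mrc1 was 1361 against 321.

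Other macrophage markers had no shared direction. Of 6 measured, Mrc1 alone was called (all genes: 2.97% higher in testis). The median was -0.11, and Ccr2 (0.83) and Clec7a (0.35) lay on the kidney side. The summed level of the 6 was 995 to 1152 in kidney and 1328 to 1557 in testis. Of 4 B cell and 4 neutrophil markers none was called, with medians of -0.20 and -0.17. None of 6 Siglecs (median -0.09) or 4 galectins (-0.13) was called either.

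Testis also had single high genes outside these groups. Muc3, a membrane mucin known from the intestine, read 94.6, 84.4 and 91.8 in kidney and 654, 360 and 657 in testis (-2.57 ± 0.18, adjusted p = 2.11e-11, 5.96-fold). In the 7 other tissues its means were 83.2 to 113, so that testis was the 1 tissue with a level above that range. Ccl27a, a chemokine known from skin, read 272, 283 and 279 against 1763, 920 and 1457 (-2.26 ± 0.16, 4.79-fold). It was the 1 called on the testis side of 29 chemokines, with Cxcl12 and the membrane-bound chemokine Cx3cl1 (2.83-fold, 1.5 ± 0.09) on the kidney side. Of all genes, 2.97% were called on the testis side and 12.2% on the kidney side. Near-identical copies of Ccl27a in the mouse genome may share its probes, and under quantile normalization its fold was 7.84.

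Tmsb10, an actin-binding thymosin, read 753, 845 and 645 in kidney and 4430, 8009 and 5768 in testis (-2.99 ± 0.18, adjusted p = 1.97e-12, 7.93-fold), a testis level that the lymph node mean of 6961 exceeded. Phactr1, a regulator of protein phosphatase 1 and actin, read 549, 524 and 452 against 4230, 1385 and 1721 (-2.09 ± 0.23, 4.26-fold). Testis replicate 1 was the highest for Phactr1, and without it the difference was -1.61. The brain mean of 2597 exceeded the testis mean of 2445. Gps2, a subunit of a nuclear corepressor complex, and Tcea1, a transcription elongation factor, were 3.01-fold and 2.76-fold higher in testis (-1.59 ± 0.14 and -1.47 ± 0.23). Their testis arrays read 492, 684 and 915 for Gps2 and 866, 633 and 1016 for Tcea1, above every tissue mean among the 7 others.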

How the data were processed

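The authors deposited linear intensities of 1813 probe sets on 27 arrays. How they summarised, background-corrected and scaled them is not given in the sources used here. Total RNA was labelled with biotin and run on a 1-colour Affymetrix array, per the labels. Medians of the 6 arrays over all probe sets ran from 228 to 244, and values were kept as deposited.

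Gene symbols came from the platform annotation (1563 probe sets with 1 symbol, 2 with several, 248 with none) and RefSeq (GRCm38.p6), which updated 1 symbol. The 702 mouse probe sets gave 573 genes, of which 122 had several probe sets. Of these, the brightest on average across the 27 arrays was used. The 839 human probe sets and the array controls were not tested. Intensities under 16 were raised to 16 (0 values in these 6 arrays) before log2 was taken. The lmFit and eBayes functions of limma 3.58.1 (R 4.3.3) fitted 1 coefficient per tissue over all 27 arrays, and the kidney minus testis contrast was adjusted over 573 genes. Folds are powers of 2 of the log2 differences. The script was tested on simulated data. The number of arrays limits the precision.

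Named are the 12 called genes with the largest difference in each direction whose arrays do not overlap, up to 4 called members of each gene list and all measured tubule, germ cell, Sertoli and Leydig markers. Others are marked, or belong to a count of 5 or fewer, or are uncalled members given for contrast. The comparison, the lists and this rule were chosen with earlier results of these data known. Alternatives were other scalings, floors, filters, probe set rules and fits, a replicate block and leaving out each of the 6 arrays.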

Additional observations from a re-analysis of the deposited data

How the results depend on the processing

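The counts, 70 genes higher in kidney and 17 higher in testis, stayed within 1.5 times under all 18 alternatives. Leaving out 1 array at a time gave 67 to 72 and 15 to 18, and the other settings gave 57 to 73 and 13 to 24. The lowest counts, 57 and 13, came with 191 low genes left out and so with fewer genes tested, and the highest on the testis side, 24, with quantile normalization. Quantile normalization moved the median difference of all genes by -0.01 and median centring by 0.04. Of the 87 called genes, 69 kept their call in every alternative that tested them. The alternative with 191 low genes left out did not test all 87. No called gene reversed. Kit, named but not called, went from -0.18 to 0.02 without testis replicate 3. The same title numbers in both tissues could mark pairs. Deviations of same-numbered arrays from their tissue means correlated at -0.15, -0.19 and -0.19 across genes. Those of differently numbered arrays correlated at 0.06 to 0.11. Deviations from a tissue mean constrain each other, so these correlations cannot decide whether the numbers mark pairs. With a replicate block the counts were 70 and 17 over all arrays, and 70 and 16 over the 6 arrays alone, where Hk1 lost its call (adjusted p = 0.151). The cause was not tested. Signals near that of the human probe sets limit what the lower side of a fold can show.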

Other observations

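Called genes outside the gene groups above were named after their values were seen. Lipa, the lysosomal acid lipase, read 1822, 1232 and 1214 in kidney and 464, 440 and 383 in testis (1.71 ± 0.16), Smpd1, the acid sphingomyelinase, read 1669, 1970 and 1782 against 896, 729 and 657 (1.26 ± 0.15), and Asah1, the acid ceramidase, differed by 1.03 ± 0.17. The Asah1 call was lost without kidney replicate 1 (0.98), kidney replicate 2 (0.92) or testis replicate 2 (0.92). Ogt adds single N-acetylglucosamine residues to nuclear and cytosolic proteins. It differed by 2.07 ± 0.18 on the probe set used and by 0.91 on its second probe set. That second probe set was the brighter in kidney and testis, and with it the Ogt call was lost. Cldn7, a tight junction protein of epithelia, read 437, 402 and 353 in kidney and 94.1, 91 and 98.9 in testis (2.06 ± 0.17). Cd74, the invariant chain of antigen presentation, differed by 1.64 ± 0.20 in favour of kidney, at levels far under its spleen mean of 8265.

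The 3′ probe set of the control gene Gapdh read 18045, 7703 and 8063 in kidney and 1688, 2259 and 2317 in testis, while the 21 other arrays ran from 5638 to 18623.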
